A study of Rattus norvegicus with 4 samples.

Results

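Iron handling in rat liver was followed through 10 genes that set how much iron the liver senses, takes up, stores and releases: *Hamp*, *Bmp6*, *Hfe*, *Tfr2*, *Tf*, *Tfrc*, *Fth1*, *Slc40a1*, *Aco1* and *Ireb2*. They were chosen by symbol and not by their values, and all 10 were found among the 16999 named genes of the tables. The 4 libraries came from livers of wild type *Rattus norvegicus*, with 1 library in each of 4 groups. All rats breathed an agent, sevoflurane at 4.5% or desflurane at 6%, and were decapitated either as soon as they lost consciousness (sevoflurane 0 h and desflurane 0 h, the controls) or after 6 h of anesthesia (sevoflurane 6 h and desflurane 6 h). So the controls had also inhaled their agent briefly, and no library of untreated rats is among the 4. The labels used here do not state strain, sex, age or the number of animals behind a library. The livers of control and anesthetized rats were taken 6 h apart, so the length of anesthesia and the time of day cannot be told apart in any 6 h against 0 h comparison.

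The liver is both the sensor of body iron and the source of the hormone that controls it. Hepatocytes secrete hepcidin, the product of *Hamp*, which binds the iron exporter ferroportin (*Slc40a1*) and causes its loss from the cell surface, so that less iron enters the blood. BMP6 from sinusoidal endothelial cells drives *Hamp* through BMP receptors and SMAD proteins, HFE and transferrin receptor 2 report the iron load of transferrin, and interleukin 6 drives *Hamp* through STAT3. Inside cells the iron regulatory proteins, encoded by *Aco1* and *Ireb2*, bind mRNAs such as those of *Tfrc*, *Fth1* and *Slc40a1* and set their stability or translation, so mRNA levels alone give only part of their output.

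Letters that match a site for each of the BMP and STAT inputs lie in the *Hamp* promoter, which is shown because *Hamp* varied most among the 10 genes. The 250 bases before the start of rat *Hamp*, from RefSeq on GRCr8, chr1:95300272-95300521, minus strand, are given in the direction of the gene. The capitals mark GGCGCC, the core of the BMP-responsive element, at 129 to 124 bases before the start, and TTCTTGGAA, a STAT site, at 117 to 109 bases before it.
Hamp: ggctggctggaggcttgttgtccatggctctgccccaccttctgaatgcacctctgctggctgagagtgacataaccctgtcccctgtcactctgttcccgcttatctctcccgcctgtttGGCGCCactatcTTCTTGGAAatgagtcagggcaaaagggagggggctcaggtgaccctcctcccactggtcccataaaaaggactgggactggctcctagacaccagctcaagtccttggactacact
In 33469 promoter windows of the reference, the 250 bases before a start were searched on both strands, and the 50 bases after it were not. GGCGCC was in 8.69%, TTCTTGGAA in 0.469% and both in 3 windows (0.00896%). Of the 10 genes, 8 have a window (*Fth1* and *Hfe* have none), GGCGCC was in those of *Hamp* and *Tfrc*, and TTCTTGGAA was in that of *Hamp* alone. Only these exact letters, which *Hamp* holds, were searched. STAT and BMP sites spelled otherwise were therefore not counted in any window, and the shares do not measure how rare such sites are. A match of letters is a description of the window and not evidence of binding.

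Levels are the deposited TPM, a transcript unit scaled for gene length and library, so that levels of different genes can be set side by side. Assembled loci and named genes together sum to more than the usual 1000000 per library, so the column was handled as a score. The libraries held between 3.50 and 5.57 Gb of aligned bases, as coverage divided by FPKM shows, with sevoflurane 0 h the shallowest. A call of higher or lower required more than 2 TPM in the higher library and a ratio above 2, and carries no p-value because each group has 1 library. Differences are given as the difference of log2(TPM + 1), which understates the change of low genes. The only replicated contrast is 6 h against 0 h over both agents, fitted with limma over 8024 genes whose mean TPM reached 2. The agent entered as a block, which left 1 residual degree of freedom. limma added error information from the other genes, which gave 11.9 degrees of freedom per gene. The SE and p-values below therefore rest mostly on that shared error, and not on how well the agents agree for the gene itself. Hepatocyte markers were high in every library, with a summed TPM of 76772, 79035, 79828 and 73523 over 6 genes in the order of sevoflurane at 0 h and 6 h, then desflurane at 0 h and 6 h. This order is kept below. Most of the hepatocyte sum was *Alb* (57453, 55977, 58868 and 53282 TPM). *Apoa1* was 1.84-fold and 1.24-fold higher at 6 h with sevoflurane and desflurane, and *Cps1* 1.56-fold and 1.43-fold. Of the 6 genes, 5 were higher with sevoflurane and 3 with desflurane, beside 4618 of 8270 and 3167 of 8372 of all genes tested. Of the 7 red blood cell markers found among 8 listed, the summed TPM was 451, 1216, 728 and 1344, higher in both 6 h libraries, and almost all of it was *Hba-a2* and *Hbb*, while *Hba-a1*, *Slc4a1*, *Ahsp* and *Epb42* stayed below 2 TPM. In bulk tissue, fewer cells of a type and less RNA per cell cannot be told apart.

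The plot of the levels of the 10 genes shows a wide spread of abundance and, for most genes, little spread between libraries. *Tf* ranked 3rd or 4th of all named genes in every library, while *Bmp6* stayed under the TPM of 2 needed for a call, so 9 of the 10 genes could be called. From the lowest to the highest library, 9 of 10 genes ranged less than 2-fold and 6 of 10 less than 1.5-fold.

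**Figure D1:**
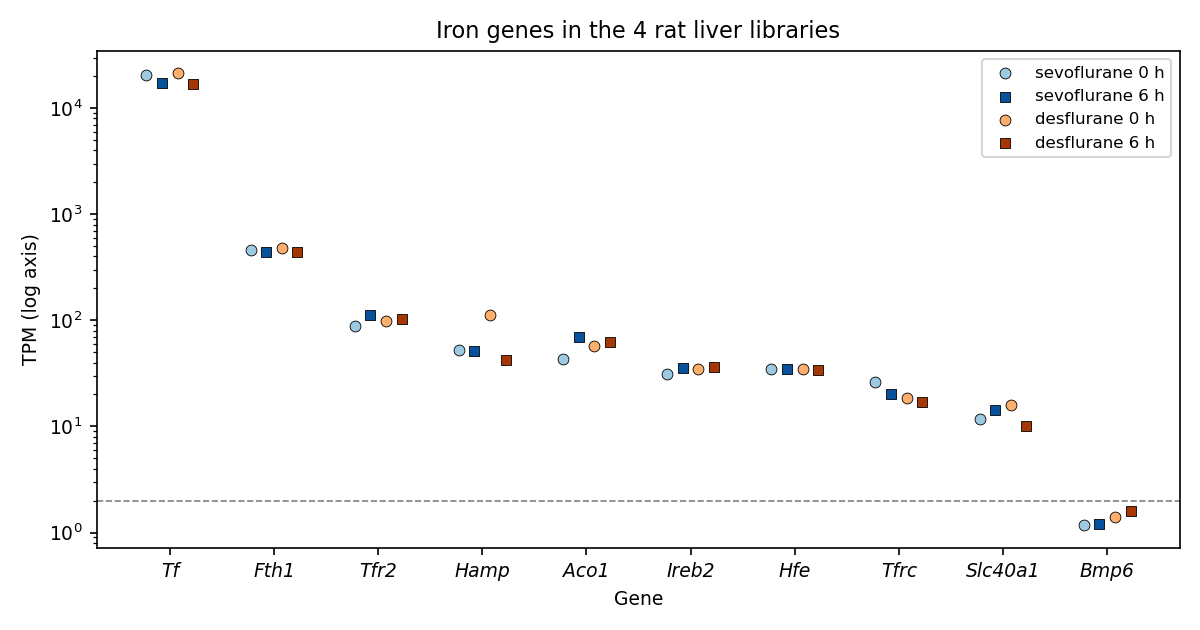
Level of each of the 10 iron genes in the 4 libraries, in TPM on a log axis, with genes ordered by mean level, circles for 0 h and squares for 6 h, and the dashed line at the minimum TPM of 2. *Tf* lies between 17076 and 21290 TPM and *Bmp6* below the line, and the *Hamp* point of desflurane 0 h (113 TPM) stands above the other 3 *Hamp* points (41.9 to 52.5 TPM).

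With sevoflurane, 0 of the 9 genes were called, beside 5.04% of 8270 genes called higher and 3.71% called lower. With desflurane, 1 of 9 was called lower (*Hamp*) and 0 were called higher, beside 5.55% of 8372 genes lower and 4.1% higher. On the log2 scale the median difference of the 9 genes was -0.02 (sevoflurane) and -0.10 (desflurane), beside 0.05 and -0.10 for all genes tested. Scaling each library by the median of its ratios shifts the log2 ratio by 0.11 with desflurane and by -0.06 with sevoflurane, and less where the pseudocount weighs on low genes. With this scaling 2 of the 20 differences of the 10 genes changed sign, that of *Hfe* with desflurane (-0.03 to 0.08) and that of *Bmp6* with sevoflurane (0.03 to -0.01).

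*Hamp* (chromosome 1, 89368021 to 89369960, minus strand, rn6 by the submitters' processing notes, as all gene positions below) encodes the hormone hepcidin. Its level was 52.5 TPM at sevoflurane 0 h, 51.1 at sevoflurane 6 h, 113 at desflurane 0 h and 41.9 at desflurane 6 h. One library stood apart, the desflurane control, and the other 3 lay within 1.25-fold of each other. Against their own controls, the 6 h libraries differed by -0.04 on the log2 scale with sevoflurane and by -1.41 with desflurane, where *Hamp* was 2.71-fold lower. The desflurane control itself was 2.16-fold above the sevoflurane control, a call that 2.76% of 8263 genes received in either direction and that was lost after median-of-ratios scaling, where the ratio was 1.97. The desflurane call therefore turns on the control used. Set against the sevoflurane control, desflurane 6 h was 1.25-fold lower and was not called (10.7% of 8293 genes were), and set against the desflurane control, sevoflurane 6 h was 2.22-fold lower and was called (7.22% of 8354 genes were). Between the 6 h libraries *Hamp* differed by 1.22-fold and was not called, beside 3.99% of 8229 genes. Over both agents, the limma estimate was -0.73 ± 0.25 (SE, 4 libraries) on the log2 scale, with an adjusted p of 0.104. A fit without the sevoflurane 0 h library leaves 1 control and no agent block, so no p-value is given from it. The assembled transcript locus on the same strand gave 37.0, 51.1, 113 and 40.4 TPM, lower than the gene row at sevoflurane 0 h and slightly so at desflurane 6 h, and the sevoflurane difference became 0.46.

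*Bmp6* (chromosome 17, 26955142 to 27112820, minus strand), the ligand that tells hepatocytes of liver iron, was low in whole liver. Its level was 1.17, 1.21, 1.41 and 1.58 TPM at a mean coverage between 2.76 and 5.76 reads per base. As its level was under the minimum TPM of 2, no difference of *Bmp6* between groups could be called. Its differences of 0.03 and 0.10 were smaller than that between the controls (0.15). The 5 sinusoidal endothelial markers found among 7 listed summed to 115, 108, 111 and 130 TPM, a ratio of 0.944 with sevoflurane and 1.17 with desflurane. *Fcgr2b* (65.2, 61.0, 66.9 and 75.3 TPM) weighed most in the sum. With sevoflurane 4 of the 5 were lower and 1 higher, and with desflurane 4 were higher and 1 (*Kdr*) lower. Of all genes tested, 3652 of 8270 were lower with sevoflurane and 3167 of 8372 higher with desflurane. The part of these markers in the *Bmp6* values was not tested.

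The receptors that report transferrin iron to the *Hamp* gene varied little. *Hfe* (chromosome 17, 43661276 to 43669327, plus strand), a class I-like protein that pairs with transferrin receptors, was at 35.0, 34.5, 34.5 and 33.8 TPM, the narrowest range of the 10 genes (1.04-fold). *Tfr2* (chromosome 12, 22177382 to 22194299, minus strand), the transferrin receptor of hepatocytes and red cell precursors, was at 89.2, 112, 97.8 and 103 TPM. Both 6 h libraries were above both controls for *Tfr2*, by 0.33 with sevoflurane and 0.07 with desflurane on the log2 scale, and the controls differed by 0.13. The limma estimate for *Tfr2* over both agents was 0.20 ± 0.14 (SE), with an adjusted p of 0.497.

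Of the genes of iron carriage and uptake, *Tf* and *Tfrc* both had lower values at 6 h than in the control of the same agent, and neither passed the test. *Tf* (chromosome 8, 111694570 to 111721275, minus strand), which encodes the iron carrier of plasma, was at 20758 TPM and 21290 TPM in the sevoflurane and desflurane controls, and at 17124 TPM and 17076 TPM after 6 h. The desflurane control was at 1.03 of the sevoflurane control and desflurane 6 h at 0.997 of sevoflurane 6 h, and both 6 h libraries were lower, at 0.825 and 0.802 of their controls. *Tf* and *Fth1* were the 2 of 10 genes whose differences had the same sign with both agents and were each larger than the difference between the controls. The share of all genes that meet this rule was not computed, so the count is a description only. After median-of-ratios scaling the differences of *Tf* were -0.33 and -0.21. That of *Fth1* with desflurane was -0.01, smaller than the difference between its controls (-0.08), so *Fth1* no longer met the rule. The limma estimate for *Tf* was -0.30 ± 0.11 (SE), with an adjusted p of 0.132, so the difference did not pass the threshold of 0.05. *Tfrc* (chromosome 11, 71397423 to 71419263, minus strand), the receptor through which most cells take up transferrin, was at 26.3, 20.2, 18.5 and 17.1 TPM. The sevoflurane control was the highest, and the desflurane control lay below the sevoflurane 6 h library, so the 0 h and 6 h libraries overlapped. Its differences of -0.37 and -0.10 were smaller than that between the controls (-0.49). Within each library the hepatocyte receptor *Tfr2* exceeded *Tfrc*, by 3.39-fold, 5.55-fold, 5.29-fold and 6.00-fold. Red cell precursors carry much *Tfrc*, and the red blood cell markers were 2.69-fold and 1.85-fold higher at 6 h, while *Tfrc* was not higher. Their part in the *Tfrc* values was not tested.

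Of the genes of storage and release, the ferritin chains varied little and ferroportin had opposite signs with the agents, without a test of that difference. *Fth1* (chromosome 1, 226030940 to 226033228, plus strand), the ferritin heavy chain that oxidises iron for storage, was at 462, 440, 480 and 442 TPM. Both 6 h libraries were below both controls, by 0.07 and 0.12 on the log2 scale, a range of 1.09-fold in all. Near-identical processed copies of *Fth1* exist in the genome and it is not known how shared reads were assigned, so its values are uncertain. The ferritin light chain *Ftl1* was at 760, 689, 915 and 854 TPM, and exceeded *Fth1* 1.65-fold, 1.57-fold, 1.91-fold and 1.93-fold, with the higher ratios in both desflurane libraries. *Slc40a1* (chromosome 9, 52894365 to 52912293, minus strand), the ferroportin gene, was at 11.8, 14.3, 15.9 and 10.2 TPM, and was the 1 gene of 10 with opposite signs, 0.26 with sevoflurane and -0.59 with desflurane. The 0 h and 6 h values overlapped, the difference between the controls was 0.40, and the limma estimate was -0.17 ± 0.23 (SE), with an adjusted p of 0.773. Macrophages that recycle red cells carry much *Slc40a1*, and the 7 Kupffer cell and macrophage markers summed to 275, 232, 257 and 312 TPM. This sum was lower with sevoflurane (0.841-fold) and higher with desflurane (1.22-fold), the reverse of *Slc40a1*, and *Clec4f* (134, 112, 134 and 141 TPM) weighed most in it. With sevoflurane 6 of the 7 were lower and 1 (*Cd163*) was higher, beside 3652 lower and 4618 higher of 8270 genes. With desflurane all 7 were higher, beside 3167 of 8372 genes. Their part in the *Slc40a1* values was not tested.

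Both genes of the iron regulatory proteins had higher values at 6 h than in the controls, and neither passed the test. *Aco1* (chromosome 5, 56425076 to 56481218, plus strand), an enzyme that acts as aconitase with an iron-sulfur cluster and binds RNA without it, was at 43.6, 69.9, 57.0 and 62.4 TPM. Both 6 h libraries were above both controls, 1.60-fold with sevoflurane and 1.09-fold with desflurane, and the desflurane control was 1.31-fold above the sevoflurane control. The limma estimate was 0.40 ± 0.16 (SE), with an adjusted p of 0.196. *Ireb2* (chromosome 8, 59457018 to 59501118, plus strand), which is degraded when iron is plentiful, was at 30.9, 35.4, 34.9 and 36.7 TPM, and the 6 h libraries were 1.15-fold and 1.05-fold above their controls. *Aco1* exceeded *Ireb2* in every library, by 1.41-fold, 1.98-fold, 1.63-fold and 1.70-fold, so the sevoflurane control had the lowest and the sevoflurane 6 h library the highest ratio.

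**Figure D2:**
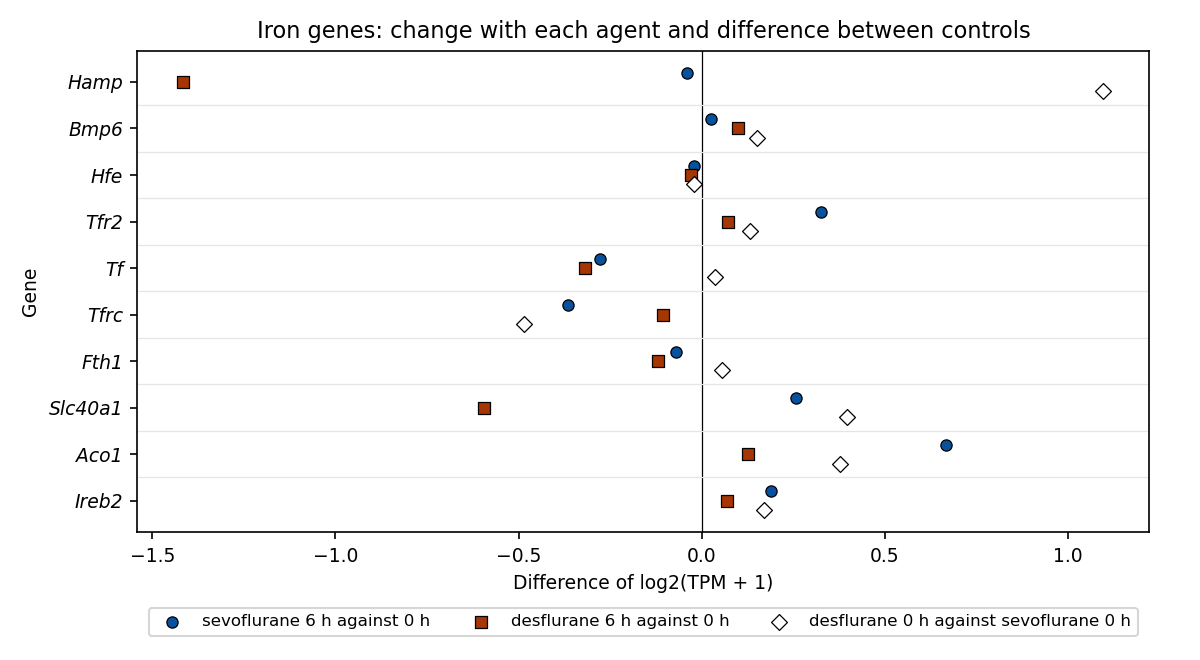
Difference of log2(TPM + 1) of each iron gene with sevoflurane (circles) and desflurane (squares), 6 h minus 0 h, and between the controls (open diamonds, desflurane 0 h minus sevoflurane 0 h), with 1 library per group and no error bars. *Hamp* has the largest difference with desflurane (-1.41) and between the controls (1.10), and the differences of *Tf* (-0.28 and -0.32) exceed that between its controls (0.04).

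Set side by side, 3 of the 9 genes had both 6 h libraries above both controls (*Aco1*, *Ireb2* and *Tfr2*) and 3 had both below (*Fth1*, *Hamp* and *Tf*), beside 23.0% and 28.0% of the 8024 genes. In the limma fit 0 of 9 genes passed an adjusted p of 0.05, beside 8.62% of the 8024 genes, and 3 of 9 (*Aco1*, *Hamp* and *Tf*) had an unadjusted p under 0.05, beside 19.9%. As 1 library stands for each group, the error behind these values is the disagreement between the agents, pooled over genes, and not a spread between animals.

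The genes around these 10 were read in a wider list of 49 genes of hepcidin signaling, iron transport, storage, heme salvage and mitochondrial iron, of which 45 were found and 40 entered the limma fit. In the limma fit 4 of 40 passed the threshold, 2 higher (*Il6r* and *Slc25a28*) and 2 lower (*Steap3* and *Hjv*), and 6 had an unadjusted p under 0.05, beside 8.62% and 19.9% of the 8024 genes. The list was thus near or below the shares over all genes, and its genes are described singly below. Fits without 1 of the libraries leave 1 library at 0 h or at 6 h, so no count is given from them. In each, fewer genes of the wider list and fewer of all genes passed than in the main fit. With no filter on low values 0 of the wider list and 0 of all 16999 genes passed. By the ratio rule 2 of 39 were higher and 1 lower with sevoflurane, and 1 of 40 was higher and 1 lower with desflurane, beside 5.04% and 3.71% of all genes tested with sevoflurane and 4.1% and 5.55% with desflurane. The median differences were 0.06 and -0.02, beside 0.05 and -0.10 for all genes tested. The plot of both agents shows the genes that moved away from the center.

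**Figure D3:**
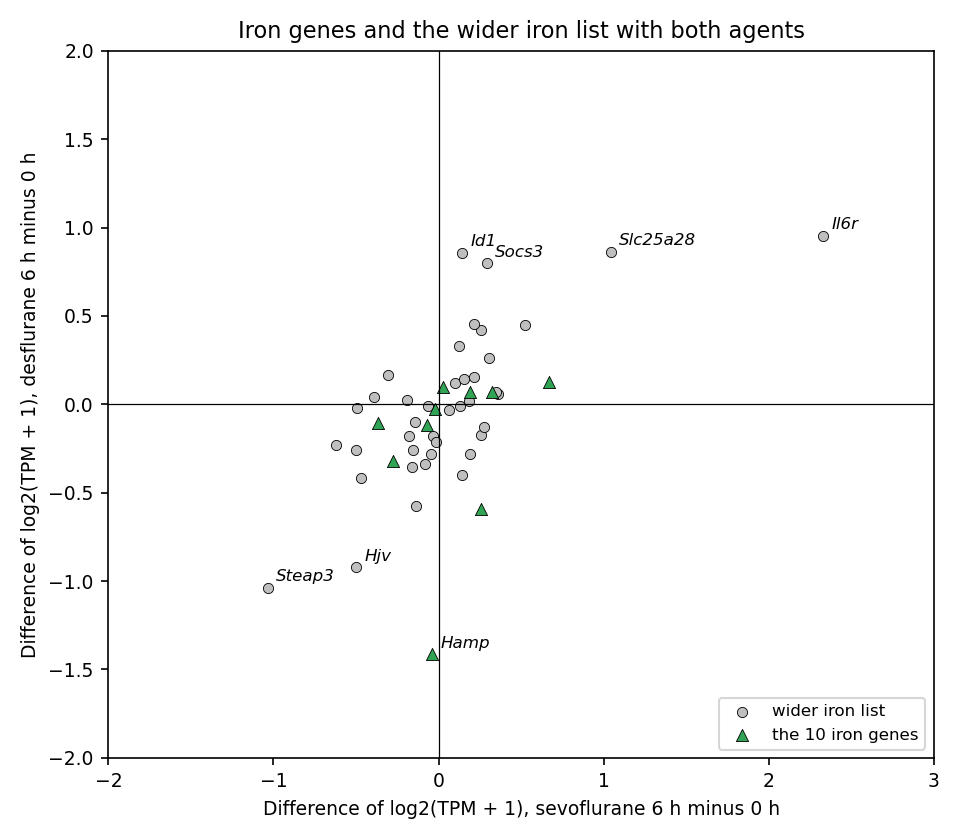
Difference of log2(TPM + 1), 6 h minus 0 h, with sevoflurane (x axis) and desflurane (y axis) for the wider iron list (grey circles, genes above a TPM of 2 in some library) and the 10 iron genes (green triangles), with genes beyond 0.75 in either direction named. *Steap3* and *Hjv* lie low with both agents, *Il6r* and *Slc25a28* lie high with both, and *Hamp* lies low on the desflurane axis alone.

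Among the genes that carry the BMP signal to *Hamp*, hemojuvelin was the one that passed the test. *Hjv*, the BMP co-receptor of hepatocytes, was at 31.6, 22.1, 34.5 and 17.7 TPM, lower in both 6 h libraries, with a limma estimate of -0.71 ± 0.18 (SE) and an adjusted p of 0.0258. It was 1.43-fold lower with sevoflurane and 1.94-fold lower with desflurane, so the ratio rule called it with neither agent. *Bmp2*, the second endothelial ligand, was at 4.00, 2.61, 4.79 and 3.34 TPM, with an adjusted p of 0.331 by limma. *Tmprss6*, the protease that cuts hemojuvelin, was at 100.3, 114, 127 and 104 TPM. The targets of the pathway other than *Hamp* gave no common direction. *Id1* was at 2.21, 2.54, 2.45 and 5.25 TPM and was called higher with desflurane, where *Hamp* was lower, and *Smad7* was at 2.60, 1.74, 2.35 and 2.45 TPM.

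Of the interleukin 6 arm, *Il6* was listed at 0 in all libraries. Its receptor *Il6r* rose in the limma fit by 1.64 ± 0.26 (SE) on the log2 scale, with an adjusted p of 0.00164. Its levels were 7.14, 39.9, 19.9 and 39.5 TPM, so that the 6 h libraries were alike and the controls were not, with desflurane 0 h 2.79-fold above sevoflurane 0 h. The ratio was 5.58 with sevoflurane, a call, and 1.98 with desflurane, just below one. *Il6st* was at 43.9, 63.4, 51.2 and 70.2 TPM and *Stat3* at 17.7, 21.4, 21.6 and 29.2 TPM. *Socs3* was at 5.02, 6.37, 5.32 and 9.99 TPM. The adjusted p of these by limma was 0.0644, 0.315 and 0.211. The 4 genes of the arm above 2 TPM were all higher than in their own control with both agents. Of all genes tested, 4618 of 8270 were higher with sevoflurane and 3167 of 8372 with desflurane.

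The uptake enzyme *Steap3*, the endosomal reductase that makes transferrin iron ready for transport, fell with both agents. Its levels were 19.6, 9.08, 18.1 and 8.29 TPM, which is 2.16-fold and 2.18-fold lower, with a limma estimate of -1.03 ± 0.19 (SE) and an adjusted p of 0.00461. The importers *Slc11a2* (4.32, 4.69, 4.05 and 4.49 TPM) and *Slc39a14* (47.3, 52.6, 43.6 and 48.3 TPM) stayed within 1.21-fold in all libraries. The ferroxidase *Cp* was at 974, 953, 1071 and 945 TPM.

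Of 5 mitochondrial iron genes, 1 rose in the limma fit. *Slc25a28*, mitoferrin 2, which imports iron into mitochondria, rose by 0.95 ± 0.20 (SE, adjusted p of 0.00827, limma), from 7.23 to 16.0 TPM with sevoflurane and from 10.7 to 20.2 TPM with desflurane.

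Scavengers of hemoglobin and heme did not pass the test by limma. Haptoglobin (*Hp*) was at 8805, 7913, 8561 and 7157 TPM, hemopexin (*Hpx*) at 2428, 2754, 2425 and 2455 TPM, and the heme-degrading enzyme *Hmox1* at 14.1, 9.76, 13.8 and 13.6 TPM. *Hp* was lower in both 6 h libraries, with an adjusted p of 0.321. Of the red blood cell markers, *Hba-a2*, *Hbb* (291, 797, 491 and 872 TPM) and *Alas2* (1.57, 5.32, 3.03 and 5.64 TPM) were higher at 6 h with both agents. *Epb42*, at the lowest levels, was lower with both. The part of these markers in the scavenger values was not tested.

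**Figure D4:**
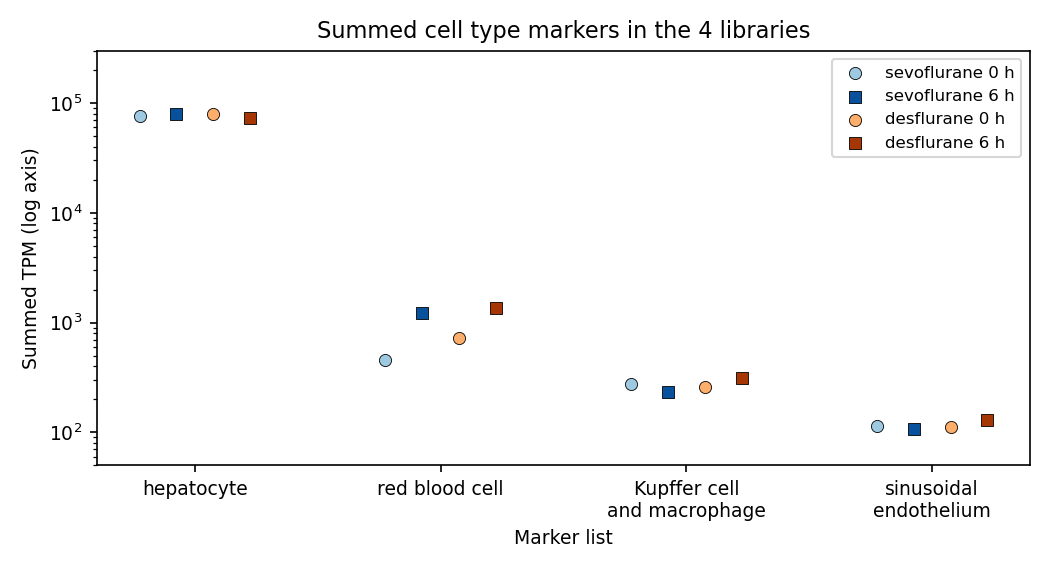
Summed TPM of the marker lists in the 4 libraries on a log axis, circles for 0 h and squares for 6 h. The hepatocyte sum, most of it *Alb*, stays between 73523 and 79828 TPM. The red blood cell sum is higher at 6 h (1216 and 1344 TPM) than at 0 h (451 and 728 TPM).

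The profile of *Hamp* over the 4 libraries was compared with those of the 8024 genes by Euclidean distance of mean-centered log2(TPM + 1). The nearest was *Emd*, which encodes the nuclear envelope protein emerin, at a distance of 0.260 and levels of 3.13, 4.06, 8.10 and 2.77 TPM. It was followed by *LOC688335* (0.281), *RGD1562844* (0.284), *Mmp14* (0.287) and *Hspa8* (0.322). *Mmp14*, a membrane-bound matrix protease, was at 18.1, 15.2, 30.0 and 13.0 TPM, and *Hspa8*, a chaperone with many near-identical copies, at 139, 180, 337 and 142 TPM. Like *Hamp*, all 5 were highest at desflurane 0 h. With 4 libraries this likeness is a description only.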

How the data were processed

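Total RNA of rat liver, kept in RNAlater and purified with an RNeasy Midi kit, was made into stranded libraries with a TruSeq total RNA Gold kit, per the labels. The submitters' processing notes name HISAT2, SAMtools, StringTie and the build rn6, without versions. The authors deposited 1 StringTie gene table per library. The deposited TPM column was handled as a score, because assembled loci alone sum to 1000000 and named genes add 0.766 to 0.789 of that. The deposited FPKM values differ from it by a constant factor in each library, and the deposited coverage, a signal in reads per base, is not scaled. Read counts are not in the tables, a counting interval was therefore not given, and a TPM of 2 corresponded to a coverage of 4.72 to 7.28.

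Rows of a symbol were summed, rows of at most 200 bp were dropped, and 31 values of symbols not listed in a library were set to 0. Groups came from the sample titles. Differences used a pseudocount of 1, and limma 3.58.1 in R 4.3.3 (trend, two-sided, Benjamini-Hochberg adjustment) and the ratio rule were tested on simulated data first. Other thresholds, pseudocounts, filters, scalings, controls and left-out libraries were tried. Assembled same-strand loci were used where they covered at least 90% of a gene. Named were the 10 genes, the genes of the wider list called with an agent, 12 genes of it given whatever their values (*Id1* was in both), and the 5 nearest neighbours of *Hamp*. *Il6*, *Il6st*, *Stat3* and *Socs3* were named after their values were seen. A further gene of the wider list is not reported here and is in none of its counts. The genes and lists were chosen with earlier results of these data known. Promoters came from RefSeq (GRCr8), matched by symbol for 10 of 10 genes. A repeat with a common hour of harvest was not analysed here.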

Additional observations from a re-analysis of the deposited data

Results flagged for a closer look

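Loci that StringTie assembled on the strand opposite to one of the 10 genes were not used in any comparison, and some were listed in a 6 h library and in neither control. Opposite to *Aco1*, such a locus had 1.58 TPM at sevoflurane 6 h (chromosome 5, 56426814 to 56428216) and 1.28 TPM at desflurane 6 h (56426640 to 56427833), near the 5' end of the gene. Opposite to *Bmp6*, a locus had 0.593 TPM at sevoflurane 6 h (chromosome 17, 27101144 to 27102175). Opposite to *Ireb2*, a locus had 1.27 TPM at desflurane 6 h (chromosome 8, 59461252 to 59481379). The libraries are stranded by the labels, all of these levels are under the minimum TPM of 2, and whether low coverage kept such loci from being assembled in the controls was not tested.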

How the results depend on the processing

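Calls of the 10 genes followed the ratio and the control. At a ratio of 1.5, 1 gene was called with sevoflurane (*Aco1*) and 2 with desflurane (*Hamp* and *Slc40a1*). At a ratio of 3, 0 were called with desflurane and 0 between the controls, and after median-of-ratios scaling 0 were called between the controls. With the control of the other agent, 1 was called with sevoflurane (*Hamp*) and 0 with desflurane, beside 7.22% of 8354 and 10.7% of 8293 genes. In the wider list, a ratio of 1.5 gave 6 and 7 calls with sevoflurane and desflurane, and a ratio of 3 gave 1 and 0. The other control gave 1 and 4, and scaling gave 5 with desflurane. Shares over all genes were not computed for ratios of 1.5 and 3 or after scaling. Those counts therefore show how calls depend on the setting, and not whether these genes differ from others. Of 20 differences (10 genes, both agents), 2 changed sign with scaling, 4 with the other control and 0 with a pseudocount of 0.1 or with the largest row alone, and of 18 with an assembled locus 2 did.

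Leaving out 1 library in the limma fit leaves 1 library at 0 h or at 6 h, so no p-value or count is given from those fits. In each of them fewer genes of the wider list passed than in the main fit, and fewer of all genes did too. The loss is therefore not particular to the iron genes. With no filter on low values, 0 genes of either list and 0 of 16999 genes were called, with 1709 at an unadjusted p under 0.05, of which 4 were in the wider list and 0 among the 10. A pseudocount of 0.1, no agent block and scaling each left 0 and 4 called, beside 640, 488 and 693 of all genes in that order. The agent block is the only pairing of libraries in these data, since each group has 1 library and no replicate numbers. A level under the minimum TPM of 2 limits *Bmp6*, and the lack of replicates limits every comparison of single libraries.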
